A study of Mus musculus with 8 samples.

Results

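MiR-31 is processed from a hairpin RNA into 2 mature strands, miR-31-5p and miR-31-3p, here called its arms (mmu-miR-31-5p and mmu-miR-31-3p on the array). Both arms were taken by their names on the array, as 2 of the 1079 murine miRs measured in callus tissue of mouse femurs. They were chosen because an earlier look at the same arrays had shown higher signals in the Nonunion group, so the group difference and the arm ratio are given as descriptions without a test. RNA came from the callus of 8 young adult CD-1 mice at day 7 after a femoral osteotomy, the cutting of the thigh bone, with 4 mice in each group. In the Nonunion group (P13 to P16) the gap measured 1.8 mm and the periosteum was stripped, whereas in the Union group (P17 to P20) it measured 0.25 mm. The fragments of both groups were held by the same pin-clip fixation, and the study used male and female animals without giving the sex of a specimen. The groups thus differed in gap size and periosteum together, and neither can be told apart from the other.

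A microRNA silences messenger RNAs to which its seed, bases 2 to 8 from the 5′ end, can pair. The hairpin of miR-31 yields both arms, after which one arm is usually loaded into the silencing complex more often than the other. MiR-31 is known from osteoblast biology as a regulator of Sp7 (Osterix), a transcription factor that drives bone formation, and it is also known from skin, intestine and skeletal muscle.

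The sequences are shown because both arms lie in a single short hairpin and yet carry unrelated seeds. The RefSeq table (GRCm38.p6) held both arms, and 840 of the 1079 murine names on the array were found in it. Seeds are in capitals.
miR-31-5p: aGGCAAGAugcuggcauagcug
miR-31-3p: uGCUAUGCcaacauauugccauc
In the hairpin of 106 bases the capitals mark both arms, miR-31-5p at positions 28 to 49 and miR-31-3p at positions 64 to 86, counted from the 5′ end.
Mir31 hairpin: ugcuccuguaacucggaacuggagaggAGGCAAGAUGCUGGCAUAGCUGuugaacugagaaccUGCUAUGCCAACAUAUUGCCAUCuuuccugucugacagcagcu

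The hairpin lies on the minus strand at chr4:88910557-88910662, with miR-31-5p at chr4:88910614-88910635 and miR-31-3p at chr4:88910577-88910599. In the RefSeq gene table this position falls within the span of the long noncoding RNA Gm49890, between the protein-coding genes Ifne and Mtap. RNAfold paired 17 of the 22 bases of miR-31-5p with bases of miR-31-3p, at a free energy of -48.7 kcal/mol for the whole hairpin. Of the 1679 mature names in the table, none other than the arms themselves had either seed. Among the array's miRs whose sequence the table held, the closest relative was miR-1941-5p, which shares a run of 9 bases with miR-31-5p and was detected on 0 arrays. The run is in capitals.
miR-1941-5p: agggAGAUGCUGGuacagaggcuu
For miR-31-3p the longest run shared with any other of the 839 miRs compared was 7 bases.

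Each arm was measured by 2 probes of 20 spots each, and the scanner software merged these 40 spots into 1 signal per array, with an error and a detection call. Both arms were called detected on all 8 arrays, and no spot was saturated. The arrays detected 324 to 391 murine miRs, with 310 detected on every array. Summed signals ran from 183513 to 279269 in the Nonunion group and from 227869 to 359995 in the Union group. Spots of the negative control probes read 51.2 to 55.0 net in the Nonunion group and 46.9 to 47.9 in the Union group. All arrays lay on 1 slide with 1 scan, each row of the slide holding 1 group, so that row and group cannot be told apart.

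MiR-31-5p, the brighter arm on this array, gave merged signals of 110.9 ± 8.46 on P13, 76.6 ± 6.05 on P14, 135.4 ± 10.3 on P15 and 127.8 ± 9.77 on P16, where ± is the error of the software within 1 array. In the Union group it gave 56.2 ± 4.69 on P17, 31.0 ± 3.06 on P18, 89.2 ± 6.89 on P19 and 31.4 ± 3.13 on P20. P15 and P16 were highest, P18 and P20 lowest, and the groups overlapped because the Union array P19 exceeded the Nonunion array P14. In the order of the arrays, P15 and P16 differed by less than their combined error, as did P20 and P18. The step from P14 to P17 was 2.66 times the combined error and that from P17 to P20 was 4.41 times.

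MiR-31-3p was dimmer and nearer to the lowest signals the arrays could detect. Its merged signals were 30.05 ± 2.95 on P13, 18.4 ± 2.45 on P14, 35.8 ± 3.26 on P15 and 36.5 ± 3.43 on P16. In the Union group they were 16.2 ± 2.44 on P17, 5.82 ± 1.54 on P18, 24.1 ± 2.58 on P19 and 6.12 ± 1.56 on P20. The arrays fell in nearly the same order as for miR-31-5p, again with P19 above P14. The lowest signal called detected on any array, over all miRs, was 2.16. Because whole callus was measured, fewer cells that make miR-31 and less miR-31 per cell cannot be told apart.

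**Figure D1:**
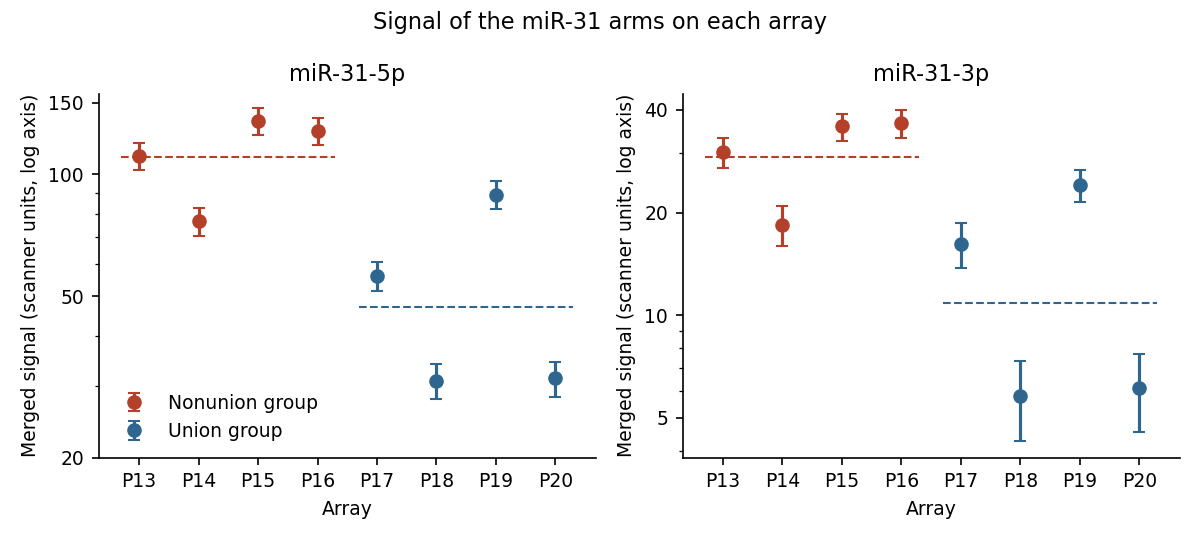
Merged signal of miR-31-5p (left) and miR-31-3p (right) on each of the 8 arrays, on log axes, with bars for the error of the scanner software and dashed lines for the mean of the log2 signals of each group. P13, P15 and P16 lie above every Union array in both panels, while P14 lies below P19.

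After log2 transformation and quantile normalization over all murine miRs, the mean of miR-31-5p was 6.93 ± 0.59 (SD, n = 4) over the Nonunion arrays and 5.40 ± 0.79 (SD, n = 4) over the Union arrays. They differed by 1.52 on the log2 scale, an FC of 2.88. MiR-31-3p stood at 4.99 ± 0.67 (SD, n = 4) and 2.85 ± 1.504 (SD, n = 4), a difference of 2.14 and an FC of 4.42. The median difference over the 310 miRs was 0.15 on the same scale. Both arms were among the 22 of 310 miRs (7.1%) whose signal was at least 2-fold higher in the Nonunion group. Only 1.29% of the miRs had every Nonunion array above every Union array, and neither arm was one of them. Since the arms were picked on this contrast, their place in these counts is a description.

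Single arrays moved the sizes but not the direction. With each array left out in turn, the difference of miR-31-5p ran from 1.28 to 1.89 and that of miR-31-3p from 1.59 to 2.79. The highest value of each arm was reached without P19. Among the 310 miRs, ordered from the brightest, miR-31-5p held ranks 112 to 162 in the Nonunion group and 145 to 224 in the Union group. MiR-31-3p held ranks 186 to 258 and 233 to 296.

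The probes gave a closer view of the dimmer arm. For miR-31-5p, the signals of probe A_54_P1322 were 50.6 to 89.5 in the Nonunion group and 19.99 to 58.9 in the Union group. Those of probe A_54_P1323 were 26.0 to 45.9 and 9.93 to 30.2. On its own and without normalization, each probe of miR-31-5p was higher in the Nonunion group by nearly the same amount, 1.22 for A_54_P1322 and 1.24 for A_54_P1323 on the log2 scale. All 20 spots of both probes were well above background on every array, and their coefficient of variation within an array was 5.73% to 15.6% for A_54_P1322 and 8.91% to 14.8% for A_54_P1323.

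For miR-31-3p, probe A_54_P3475 gave 11.8 to 23.8 in the Nonunion group and 5.82 to 15.1 in the Union group. Probe A_54_P3474 gave 6.66 to 12.99 and 2.94 to 9.04. The difference was 1.11 for A_54_P3475 and 1.16 for A_54_P3474. The spots of these probes were less often well above background. For A_54_P3474 this held for 19, 8, 19 and 20 of 20 spots on P13 to P16, and for 5, 0, 19 and 0 on P17 to P20. For A_54_P3475 it held for all 20 spots on P13 to P16 and for 19, 4, 20 and 5 on P17 to P20. The 2 arrays on which A_54_P3474 had no such spot, P18 and P20, were those with the least miR-31-5p, so the difference of this probe rests on 2 Union arrays whose signal was not well above background. The coefficient of variation within an array was wider than for miR-31-5p, at 15.6% to 49.6% for A_54_P3474 and 9.04% to 81.1% for A_54_P3475. The widest came from P18, where 2 spots of A_54_P3475 were marked as outliers and the spots averaged 18.996 with them and 15.3 without them.

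The merged signal was then taken apart into its probes. For all 2896 detected values, over every miR and array, it equalled within 0.1% the sum of the probes whose signal was at least 3 times their error. On P18, A_54_P3474 gave 2.94 with an error of 1.46, and on P20 it gave 3.17 with an error of 1.48, that is 2.01 and 2.15 times the error. The merged signal of miR-31-3p was therefore the sum of both probes on 6 arrays and that of A_54_P3475 alone on P18 and P20. With both probes added on every array, miR-31-3p rose to 8.75 on P18 and 9.29 on P20 and kept its value on the other arrays. This change in the number of probes was not special to miR-31-3p, since it occurred in 61 of the 310 miRs (19.7%). MiR-31-5p had both probes counted on every array.

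**Figure D2:**
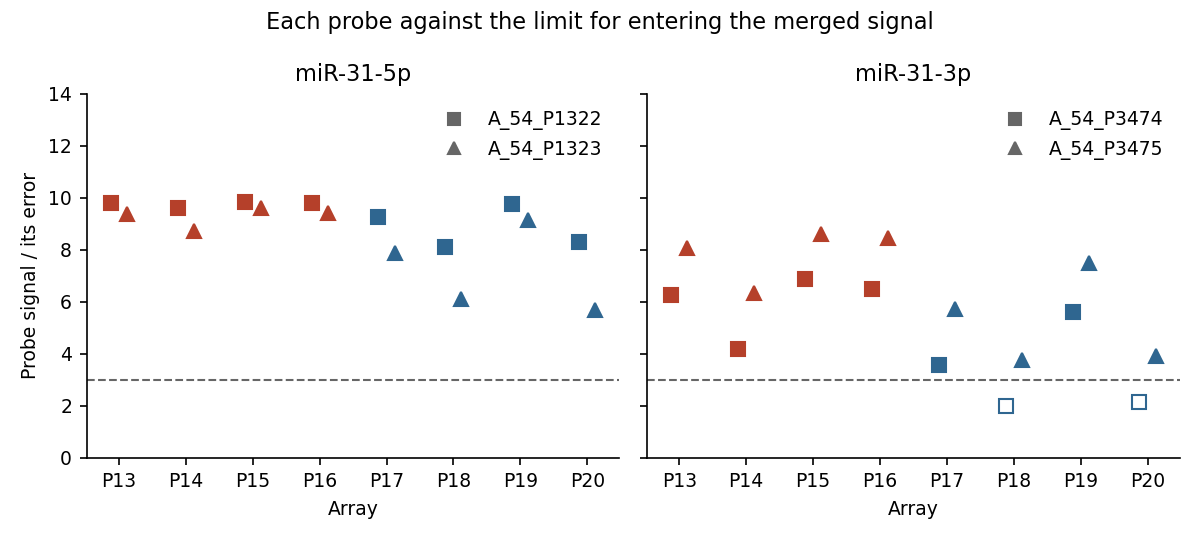
Signal of each probe divided by its error on each array, for miR-31-5p (left) and miR-31-3p (right), in red for the Nonunion group and blue for the Union group; squares and triangles are the 2 probes of an arm. The dashed line at 3 is the limit for entering the merged signal, and the only open symbols, not counted, are A_54_P3474 on P18 and P20.

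Quantile normalization changed the same 2 values further. This method replaces the signal at each rank by the mean over the arrays at that rank. MiR-31-3p stood at rank 345 of all murine miRs on P18 and at rank 326 on P20, while P16 had only 324 detected miRs and held the floor of 0.1 at these ranks. The normalized value minus the log2 merged signal was -1.21 on P18 and -0.68 on P20. On the other arrays this shift of miR-31-3p lay between -0.52 and 0.43. With both probes of every miR added before normalization, undetected ones included, the values were 2.71 on P18 in place of 1.33, and 3.22 on P20 in place of 1.94.

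The difference of miR-31-3p was smaller once both probes were counted. It was 1.44 after quantile normalization, an FC of 2.71, with group values of 4.99 ± 0.65 (SD, n = 4) and 3.55 ± 0.83 (SD, n = 4). For miR-31-5p the same step left 1.52. With each array left out in turn, the difference of miR-31-3p with both probes ran from 1.16 to 1.81. In the log2 table that the authors deposited, the difference was 1.40 for miR-31-5p, an FC of 2.64, and 1.26 for miR-31-3p, an FC of 2.39. All 8632 values of that table were rebuilt within 0.001 by quantile normalization of linear signals, the addition of 5.82 to every value and only then log2, with the probes of undetected miRs summed. With the 5.82 taken off again, which was tried after seeing the data, the differences were 1.53 and 1.75. Without any normalization and with both probes, it was 1.23 and 1.13. Across all ways of processing shown, both arms were higher in the Nonunion group, but whether miR-31-5p or miR-31-3p had the larger difference changed from one to another.

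**Figure D3:**
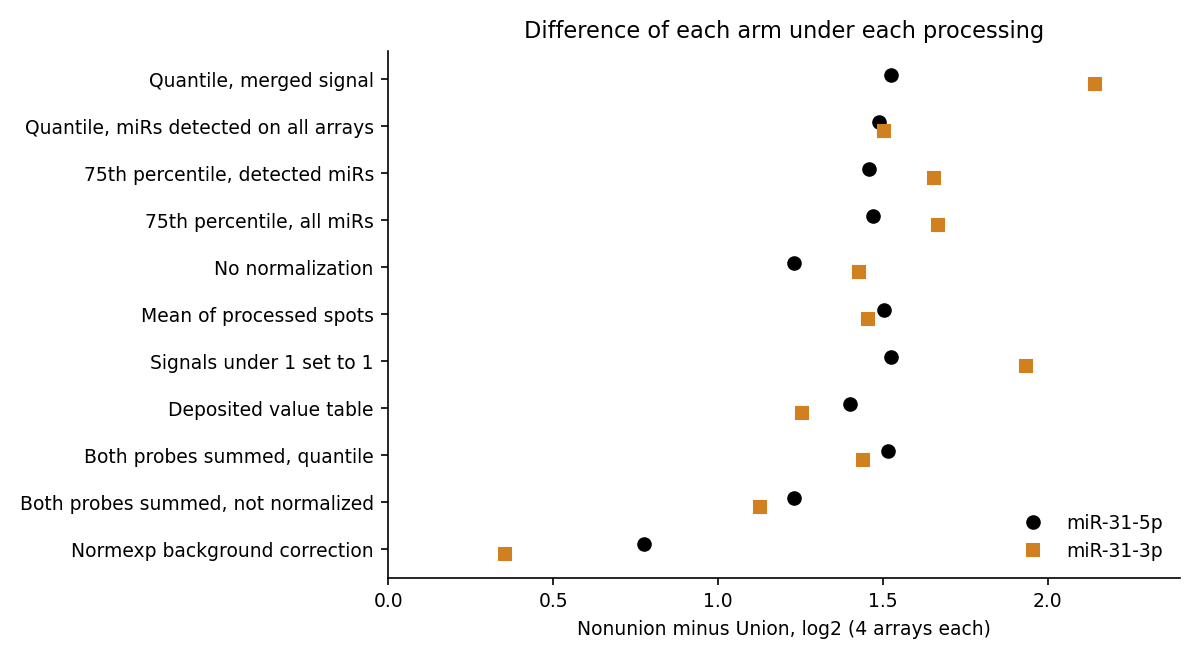
Difference between the group means (Nonunion minus Union, log2, 4 arrays each) of miR-31-5p (circles) and miR-31-3p (squares) under 11 ways of processing the same arrays. All differences are above 0; miR-31-5p spans 0.78 to 1.52, miR-31-3p spans 0.35 to 2.14, and the lowest values of both come from the normexp background correction.

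The arm ratio, the log2 signal of miR-31-5p minus that of miR-31-3p, was compared between arrays only, since different probes measured the arms and their signals do not give a ratio of molecules. From the normalized merged signals it was 2.003 on P13, 2.02 on P14, 1.89 on P15 and 1.83 on P16. In the Union group it was 1.90 on P17, 3.37 on P18, 1.86 on P19 and 3.08 on P20. P18 and P20 thus stood apart from 6 arrays that lay within 1.83 to 2.02. From the merged signals without normalization, P18 and P20 came closer, at 2.41 and 2.36, with the others at 1.80 to 2.05.

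With both probes of each arm added, the arm ratio of P18 and P20 fell into the range of the other arrays. Its values were 1.88, 2.05, 1.92 and 1.81 on P13 to P16, and 1.80, 1.82, 1.89 and 1.76 on P17 to P20. On the linear scale miR-31-5p was thereby 3.38 to 4.15 times as bright as miR-31-3p over the 8 arrays, with a coefficient of variation of 6.68%, while the signal of miR-31-5p itself spanned 31.0 to 135.4. The errors of single ratios, 0.42 to 0.93 on this scale, were larger than the SD of 0.24 between arrays.

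The group means of the arm ratio changed order with the processing. From normalized merged signals they were 1.93 ± 0.093 (SD, n = 4) for Nonunion and 2.55 ± 0.79 (SD, n = 4) for Union, a difference of -0.62. They were 1.92 ± 0.10 (SD, n = 4) and 1.82 ± 0.055 (SD, n = 4) from both probes without normalization, a difference of 0.10, and the groups overlapped. In the deposited log2 table they were 1.75 ± 0.043 (SD, n = 4) and 1.61 ± 0.098 (SD, n = 4), a difference of 0.15, and there the lowest Nonunion array, P16 at 1.71, lay just above the highest Union array, P20 at 1.70. With the constant of 5.82 taken off that table, the difference was -0.23. Every negative difference came from merged signals, which lacked A_54_P3474 on P18 and P20. Every setting that used both probes gave a positive one, as did the deposited table with its constant. With both probes summed the groups overlapped, with and without normalization, so the sign was not settled by these arrays.

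**Figure D4:**
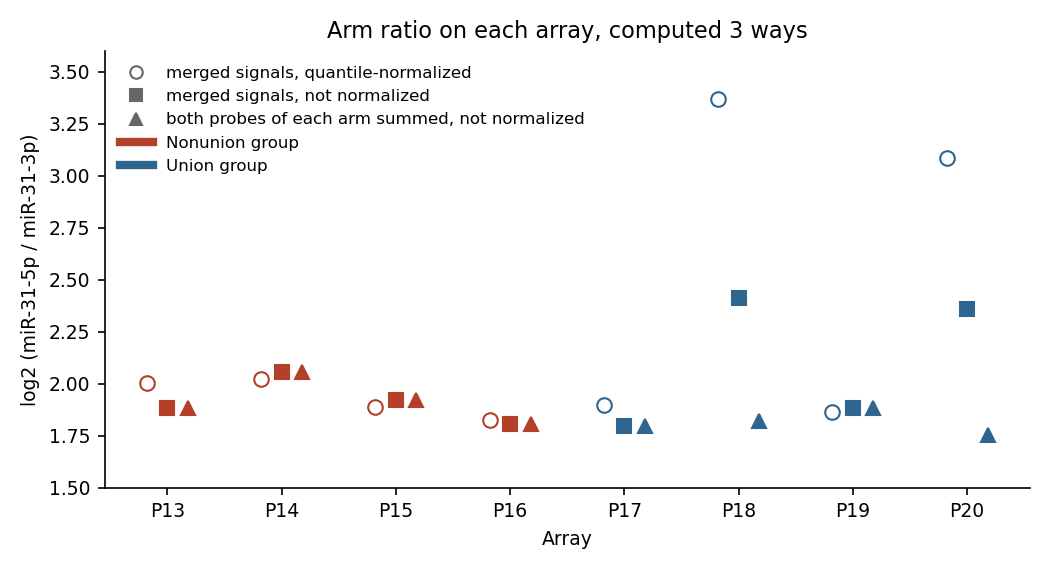
Log2 ratio of miR-31-5p to miR-31-3p on each array from quantile-normalized merged signals (open circles), merged signals without normalization (squares) and both probes of each arm summed without normalization (triangles). The triangles stay within 1.76 to 2.05 on all arrays, whereas the circles of P18 and P20 lie above 3.

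The arms followed each other closely over the 8 arrays. Pearson's r between their normalized values was 0.972 with merged signals and 0.997 with both probes counted, and both arms put the arrays in the same rank order. Within the groups, after the group means had been taken off, r was 0.943 and 0.996. These are descriptions over 8 arrays, and the arms share the hairpin, the RNA and the hybridization of each array.

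The other miRs most like the arms are printed with their seeds in capitals, to show that none of the 7 shares a seed with an arm of miR-31.
miR-214-5p: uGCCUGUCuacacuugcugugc
miR-199a-5p: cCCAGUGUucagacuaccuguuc
miR-543-3p: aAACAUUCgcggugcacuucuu
miR-214-3p: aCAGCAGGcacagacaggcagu
miR-431-5p: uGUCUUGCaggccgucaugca
miR-374c-5p: aUAAUACAaccugcuaagug
miR-132-3p: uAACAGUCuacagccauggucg
For miR-31-5p, the 5 miRs with the highest r among the other 309 were miR-214-5p, miR-31-3p, miR-199a-5p, miR-543-3p and miR-214-3p, with r between 0.969 and 0.973. MiR-214 and miR-199a come from a common transcript in mesenchymal cells, and miR-543 belongs to the imprinted Dlk1-Dio3 cluster. For miR-31-3p they were miR-543-3p, miR-431-5p of the same imprinted cluster, miR-31-5p, miR-374c-5p and miR-132-3p, with r between 0.954 and 0.990. Such values were frequent, since 33 of 309 miRs (10.7%) had an r above 0.9 with miR-31-5p and 26 (8.41%) had one with miR-31-3p.

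The miRs most like the arms spanned very different signals. MiR-199a-5p gave 1523 to 2000 in the Nonunion group and 849 to 1762 in the Union group, and miR-214-3p gave 900 to 1302 and 537 to 1047. MiR-543-3p gave only 9.12 to 11.8 and 6.11 to 11.6, and at least 1 of its 2 probes went uncounted on all 8 arrays. MiR-214-5p gave 12.8 to 19.9 and 7.22 to 15.5, with at least 1 of its 4 probes uncounted on all 8 arrays. A probe also went uncounted on 3 arrays for miR-431-5p and on 2 for miR-132-3p. With both probes counted, each arm was the miR most like the other. In the order by likeness to miR-31-5p, miR-214-5p dropped from place 1 to place 6. In the order for the dimmer arm, miR-132-3p dropped from place 5 to place 25, miR-431-5p from place 2 to place 11 and miR-374c-5p from place 4 to place 6. P19 stood out among the Union arrays, as miR-199a-5p reached 10.9 on P19 after normalization against 9.87 to 10.01 on the other Union arrays.

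**Figure D5:**
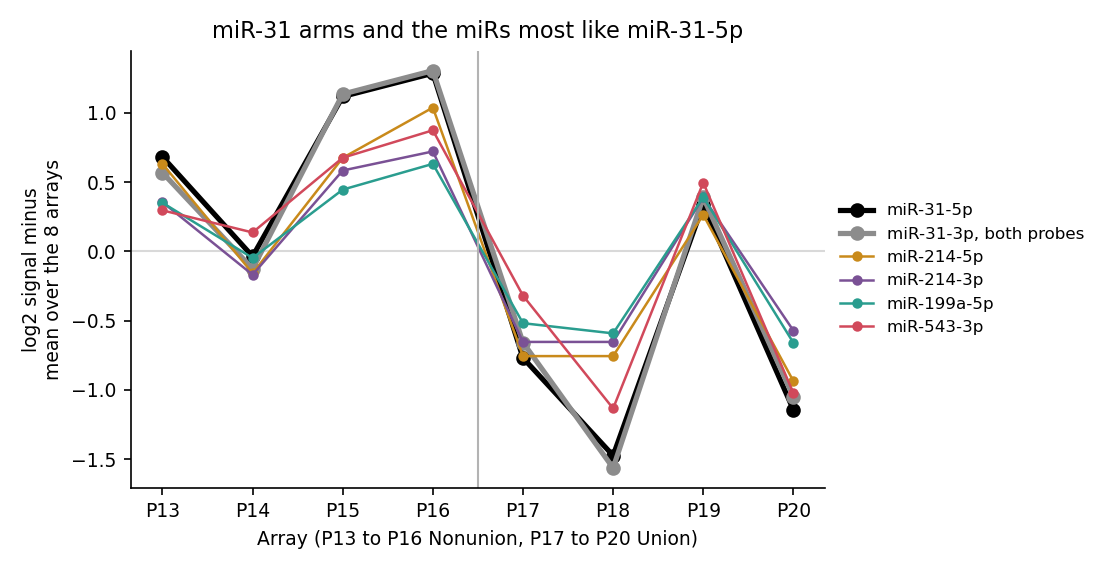
Normalized log2 signal on each array minus the mean over the 8 arrays, for miR-31-5p (black), miR-31-3p with both probes counted (grey) and the 4 other miRs most like miR-31-5p. All profiles are high on P15, P16 and P19 and low on P17, P18 and P20, and the arms of miR-31 have the widest span of the 6 profiles drawn.

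The miRs reported to act on an osteoblast factor were examined next, from a list put together with earlier results of these data known. The background was 43 of 310 miRs (13.9%) with a limma p under 0.05 before adjustment. Of the 310 miRs, 9.68% passed this threshold with higher Nonunion signals and 4.19% passed it with lower ones. Of 11 miRs reported to act on Runx2, the master regulator of osteoblasts, 6 were detected on all arrays, 1 on 7 arrays and 4 on none. None of the 6 passed this threshold in limma in either direction, and their median difference was 0.079 on the log2 scale against 0.15 over all miRs tested. One of them, miR-23a-3p, had every normalized Nonunion value above every Union value, as did 1.29% of all miRs. The methods' t-test and limma without a filter on dim miRs each called miR-23a-3p, limma after normexp called miR-30c-5p as lower, and limma without P20 called miR-34c-5p and miR-218-5p. MiR-133a-3p, which is also abundant in muscle, averaged 12.5 ± 0.73 (SD, n = 4) over the Nonunion arrays and 12.98 ± 0.33 (SD, n = 4) over the Union arrays.

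Markers of cell types differed between the groups beside miR-31, and their part in the difference of the arms was not tested. Of 6 mesenchymal and fibroblast miRs, 4 were higher in the Nonunion group by unadjusted limma p. They were miR-199a-3p, miR-199a-5p, miR-199b-5p and miR-214-3p, while miR-143-3p and miR-145-5p were not called. MiR-199a-5p and miR-214-3p are also among the miRs most like miR-31-5p, and miR-199a and miR-214 come from a common transcript. The summed signal of the list was 10074 to 13070 in the Nonunion group and 6475 to 11353 in the Union group. This and all further sums are of merged signals without normalization. All 4 arms of miR-140 and miR-455, which mark cartilage, were also higher by unadjusted limma p, with sums of 934 to 3521 and 484 to 996. Leaving out 1 array kept 2 to 4 of the 4 cartilage calls, with 2 without P17. The mesenchymal calls fell to 2 without P13 and to 0 without P15, P16, P17, P18 or P20. Both the methods' t-test and limma without a filter on dim miRs kept 1 mesenchymal call and 3 cartilage calls, and normexp kept 3 of each. In the sums of both lists P19 lay above P14, as it did for the arms of miR-31. The same order was seen in the sums of the myeloid list (5597 and 3534) and the endothelial list (2743 and 2703). In the muscle, red blood cell, lymphocyte and epithelial lists P14 lay above P19. Of 4 myeloid and leukocyte miRs, miR-223-3p was lower with a difference of -1.13 (unadjusted limma p 0.046), and the sums were 3534 to 4985 and 5375 to 20398. This call was lost without P13, P14, P15, P16 or P19, with scaling to either 75th percentile, with either other detection filter and by the methods' t-test. None of these calls held after Benjamini-Hochberg adjustment over the 310 miRs, where 1 miR in all passed (0.323%).

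The skeletal muscle list, with sums of 14855 to 62359 in the Nonunion group and 36945 to 95817 in the Union group, had none of its 4 tested members pass. The same was true for 3 miRs of red blood cells, with sums of 2960 to 9469 and 3050 to 16676, and 2 of endothelium, with sums of 1935 to 2703 and 2743 to 3472. The endothelial sums, which were not normalized, did not overlap between the groups, and neither did the myeloid sums. The normalized values of both endothelial miRs overlapped. MiR-223-3p had every normalized Nonunion value below every Union value, as did 2.58% of the 310 miRs. MiR-150-5p of lymphocytes gave 7.55 to 42.1 and 7.56 to 17.6. Keratinocytes and other epithelia are a known source of miR-31, and their part in the signal of the arms was not tested. Of 7 epithelial miRs, miR-205-5p, miR-200a-3p, miR-200b-3p and miR-429-3p were detected on no array, miR-200c-3p and miR-141-3p on 1 array each and miR-203-3p on 5. The epithelial sum was at most 8.91 in the Nonunion group and 11.3 in the Union group.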

How the data were processed

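Callus RNA was labelled with Cy3 and hybridized to Agilent miRNA arrays, 1 array per mouse. Scanning and signal extraction were the authors' work, with Agilent Feature Extraction (version 10.10.1.1 by the file header; array design on mm9). They deposited linear intensity values per spot, probe and miR after background subtraction, with an error and a detection call for each. A further deposited table holds log2 values, which the study's methods credit to R and preprocessCore. Unlike the main setting here, its values follow from quantile normalization of linear signals, then a constant of 5.82, then log2. All columns used belong to these 8 arrays. Groups were taken from the sample labels. The number of arrays limits the precision. P-values set a group difference against the spread between mice within the groups, which limma moderates over the miRs tested.

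The merged signals of 1079 murine miRs, with 0.1 for undetected ones, were put on the log2 scale and then quantile normalized (R 4.3.3). Limma 3.58.1 compared the 310 miRs detected on every array (lmFit and eBayes, two-sided, Benjamini-Hochberg adjusted), after a test on simulated data. Files were read with Python 3.11.15, numpy 2.4.6 and pandas 2.3.3, hairpins were folded with RNAfold 2.7.2, and matplotlib 3.10.9 drew the figures. Sequences and coordinates came from RefSeq tables of GRCm38.p6. The members, lists and alternatives were chosen with earlier results of these data known, and summing both probes whatever their error was chosen after seeing the values of the probes. MiRs named are the arms, the 5 with the highest Pearson r to each arm, the closest in sequence and the members of the osteoblast and cell type lists; a further list and its result are not reported here. MiR-486-5p was not found by name among the array's miRs. Alternatives were other normalizations (75th percentile, quantile over detected miRs, none), a floor of 1, the mean of processed spots, normexp with an offset of 50, the deposited table (also without its constant), single probes, other detection filters, the methods' t-test and leaving out each array.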

Additional observations from a re-analysis of the deposited data

Results flagged for a closer look

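In the Union group, P19 stood apart in 3 of the miRs most like miR-31-5p. Its normalized log2 signal was 3.96 for miR-214-5p, with 2.76 to 2.94 on the other Union arrays. It was 10.9 for miR-199a-5p, with 9.87 to 10.01 on the others, and 10.2 for miR-214-3p, with 9.18 to 9.26 on the others. In each, the gap from P19 to the nearest array was a larger share of the range of the group than Dixon's limit for 4 values allows. These 3 were found among 38 groups of 4 arrays examined, where chance alone would give about 1.9 if the groups were independent. The 3 were not independent, since miR-214 and miR-199a come from a common transcript and all were flagged on P19. P19 was also the highest Union array for both arms of miR-31, where its gap did not pass this limit.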

How the results depend on the processing

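Both arms of miR-31 were higher in the Nonunion group under every alternative computed. Normexp background correction moved them most, to 0.78 for miR-31-5p and 0.35 for miR-31-3p. Leaving out 1 array gave 1.28 to 1.89 and 1.59 to 2.79, and with both probes summed 1.27 to 1.88 and 1.16 to 1.81.

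The difference of the arm ratio, -0.62 as first given, was negative under some alternatives and positive under others. It was -0.016 with quantile normalization over the miRs detected on all arrays, -0.20 with either 75th percentile scaling or none, -0.41 with a floor of 1 and -0.23 in the deposited table without its constant. Percentile scaling shifts both arms of an array alike, so the value of -0.20 could not differ between either scaling and none. The difference was positive in the others, at 0.050 from the mean of processed spots, 0.42 after normexp, 0.15 in the deposited table with its constant, 0.076 with both probes summed and normalized, and 0.10 with both summed and no normalization. Over probe A_54_P3474 it was 0.060 for A_54_P1322 and 0.081 for A_54_P1323, and over A_54_P3475 it was 0.11 and 0.13, with A_54_P3474 not well above background on P18 and P20. Leaving out 1 array gave -0.93 to -0.23, or 0.040 to 0.13 with both probes summed. With both probes summed, A_54_P3474 was counted on P18 and P20, and undetected miRs no longer all stood at 0.1. The part of each step in the smaller spread was not tested.

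The number of miRs with an unadjusted limma p under 0.05 was 43, and 18 to 115 without 1 array, with 20 without P15, 28 without P16, 18 without P17, 21 without P18 and 115 without P19. With both probes summed it was 21 to 122. Without P19, 12 miRs passed after adjustment. Among 270 alternative values of the other miRs whose differences were recomputed, 188 stayed on the same side of this threshold, 71 lost the call, 11 gained it and none changed sign. No paired analysis was made, since each array came from a different mouse and the mice were randomly distributed to the groups. MiR-31-3p lay near the limit of detection on P18 and P20, with signals under 4 times their error, so its difference is less firmly measured than that of miR-31-5p.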
